A study of Mus musculus with 3 samples.

Results

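The 6 genes described here are *Nr4a1*, *Nr4a2*, *Nr4a3*, *Egr1*, *Egr2* and *Egr3*, which were taken by name from the 31053 genes of the deposited tables. They were followed in 3 single-cell RNA libraries of mouse spleen CD4+ T cells, 1 library per group. Unstimulated WT cells were kept in DPBS, and stimulated WT cells were stimulated through CD3 and CD28 in culture (each antibody at 1 μg/mL, 24 h). Both came from C57BL/6 Ift20 f/f mice without Cre. Stimulated IFT20-KO cells had the same culture and came from Ift20 f/f CD4 cre mice, in which a Cre driven by the *Cd4* promoter, active in other T cells too, removes the floxed part of *Ift20*. All 3 groups thus carried the floxed allele, the mice were male and 5 to 10 weeks old, and cells enriched as naïve CD4+ T cells were sorted as 7AAD-CD3+CD4+ before capture. The unstimulated cells were not cultured, so the antibodies and the time in culture cannot be told apart.

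NR4A proteins are orphan nuclear receptors, that is, receptors with no known physiological ligand, and EGR proteins are zinc finger transcription factors. Both families are immediate-early genes, which are transcribed within minutes of T cell receptor signaling from promoters already poised for it, without new protein synthesis, and whose transcripts are short-lived. NR4A transcription is closely tied to calcium and calcineurin signaling, that of *Egr1* to the ERK pathway and serum response factor, and members of both families are known as regulators of tolerance and exhaustion in T cells. NAB1 and NAB2 are corepressors of EGR proteins, which also induce NAB2.

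The promoters of 4 of the 6 genes are in a RefSeq table for GRCm38.p6 and are shown because the genes they belong to were all higher after stimulation. Each sequence is 5′ to 3′ in the direction of transcription and ends at the base before the start site, except that of *Nr4a3*, which ends before an annotated exon of that gene. Capitals mark CGTCA or its reverse complement TGACG, the core of the cAMP response element bound by CREB family factors, and, in *Egr2*, a CArG box, the site of serum response factor. The *Nr4a1* stretch is chr15:101266596-101266845 on the plus strand, that of *Nr4a2* chr2:57124004-57124253 on the minus strand, that of *Nr4a3* chr4:48045055-48045152 on the plus strand and that of *Egr2* chr10:67537619-67537868 on the plus strand.
Nr4a1: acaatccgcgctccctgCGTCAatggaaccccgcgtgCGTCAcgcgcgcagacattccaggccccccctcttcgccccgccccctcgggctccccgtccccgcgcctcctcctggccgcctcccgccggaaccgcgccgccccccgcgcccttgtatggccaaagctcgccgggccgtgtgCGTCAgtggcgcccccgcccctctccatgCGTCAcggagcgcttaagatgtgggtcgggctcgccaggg
Nr4a2: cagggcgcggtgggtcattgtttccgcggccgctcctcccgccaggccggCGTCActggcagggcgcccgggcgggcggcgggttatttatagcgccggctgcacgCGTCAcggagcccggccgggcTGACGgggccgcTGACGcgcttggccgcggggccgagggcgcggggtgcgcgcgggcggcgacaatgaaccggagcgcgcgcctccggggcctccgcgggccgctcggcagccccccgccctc
Nr4a3: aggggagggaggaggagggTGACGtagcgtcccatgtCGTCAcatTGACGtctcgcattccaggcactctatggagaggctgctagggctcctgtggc
Egr2: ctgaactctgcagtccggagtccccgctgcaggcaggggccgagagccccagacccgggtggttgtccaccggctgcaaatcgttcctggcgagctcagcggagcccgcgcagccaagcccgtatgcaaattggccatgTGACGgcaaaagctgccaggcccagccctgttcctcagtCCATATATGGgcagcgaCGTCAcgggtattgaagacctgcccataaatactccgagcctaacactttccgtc
The core occurred 4 times in the *Nr4a1* stretch, 4 times in that of *Nr4a2*, 3 times in the shorter *Nr4a3* stretch and 2 times in that of *Egr2*. Of all 32817 promoter windows in the table, each 300 bases long and searched on both strands, 20.8% held at least 1 core and 1.03% at least 3. The CArG box stood at 1 place in the *Egr2* stretch, and 1.63% of all windows held any. The *Nr4a1* stretch also held the EGR site GCGGGGGCG, on the reverse strand, which 2.91% of all windows held. The full element TGACGTCA, the NR4A monomer site AAAGGTCA, the AP-1 site TGACTCA and the other EGR site GCGTGGGCG were in none of the windows of these 4 genes. A match describes letters in a window and not a bound site.

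Barcodes were kept if they had over 200 genes and less than 15% of UMIs from mitochondrial genes, which left 8031 of 8253 barcodes in the unstimulated WT library, 9903 of 10320 in the stimulated WT library and 13920 of 13932 in the IFT20-KO library. A UMI (unique molecular identifier) stands for 1 captured RNA molecule. The kept cells held 37133949, 116979076 and 106435143 UMIs, with medians of 4627, 12167 and 5014.5 per cell, and 16.6%, 21.7% and 39.6% of them had fewer than 3000. Between 125 and 207 barcode sequences were shared by a pair of libraries, at most 2.0% of either. All 7 markers of CD4+ T cells were at or above 10 UMIs per 1000000 (CPM) in every library, and the summed markers of B cells, NK cells, erythroid cells and platelets were below 3.5 CPM. The 2 markers of CD8+ T cells summed to 28.7, 9.16 and 11.5 CPM, with *Cd8a* in at most 29 cells of a library. Of the 4 myeloid markers, *Cst3* alone reached 10 CPM, and *Lyz2* was found in at most 1 cell per library. *Ift20* itself was at 64.4 CPM before stimulation, 76.0 CPM after it and 6.60 CPM in IFT20-KO cells. With 1 library per group no test was possible, and every interval given is a 95% interval for counting error only.

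All 3 Nr4a genes were higher in stimulated than in unstimulated WT cells. *Nr4a1*, which encodes Nur77 and is widely used as a reporter of antigen receptor signaling, lies at chr15:101254269-101274795 on the plus strand (GENCODE M21, GRCm38). It was at 27.7 CPM in the unstimulated WT library (26.0 to 29.4), 159 CPM in the stimulated WT library (157 to 161) and 113 CPM in the IFT20-KO library (111 to 115). Both stimulated libraries stood above the unstimulated one, and WT was 5.74-fold higher (5.39 to 6.12). *Nr4a2*, encoding Nurr1, lies at chr2:57106830-57124003 on the minus strand. It was nearly absent before stimulation, with 36 UMIs or 0.969 CPM (0.679 to 1.34), and reached 37.9 CPM (36.8 to 39.1) after it, with 33.2 CPM (32.1 to 34.3) in IFT20-KO cells. The WT difference was 39.1-fold (28.2 to 56.0), the highest ratio among the 6 genes. It rests on only 14 unstimulated cells with a UMI of *Nr4a2*. As a log2 ratio it was 5.29, and 4.06 in cells with at least 6000 UMIs, which is below that interval. *Nr4a3*, encoding Nor1, lies at chr4:48045153-48086447 on the plus strand. Its level went from 3.31 CPM (2.75 to 3.95) to 32.2 CPM (31.2 to 33.3) with stimulation, which is 9.73-fold (8.13 to 11.7), and IFT20-KO cells had 29.5 CPM (28.5 to 30.6). Counted in UMIs, which are not corrected for transcript length, *Nr4a1* made up 86.6% of the family's total before stimulation, 69.4% after it and 64.2% in IFT20-KO cells, while the share of *Nr4a2* was 3.04%, 16.6% and 18.9%.

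**Figure D1:**
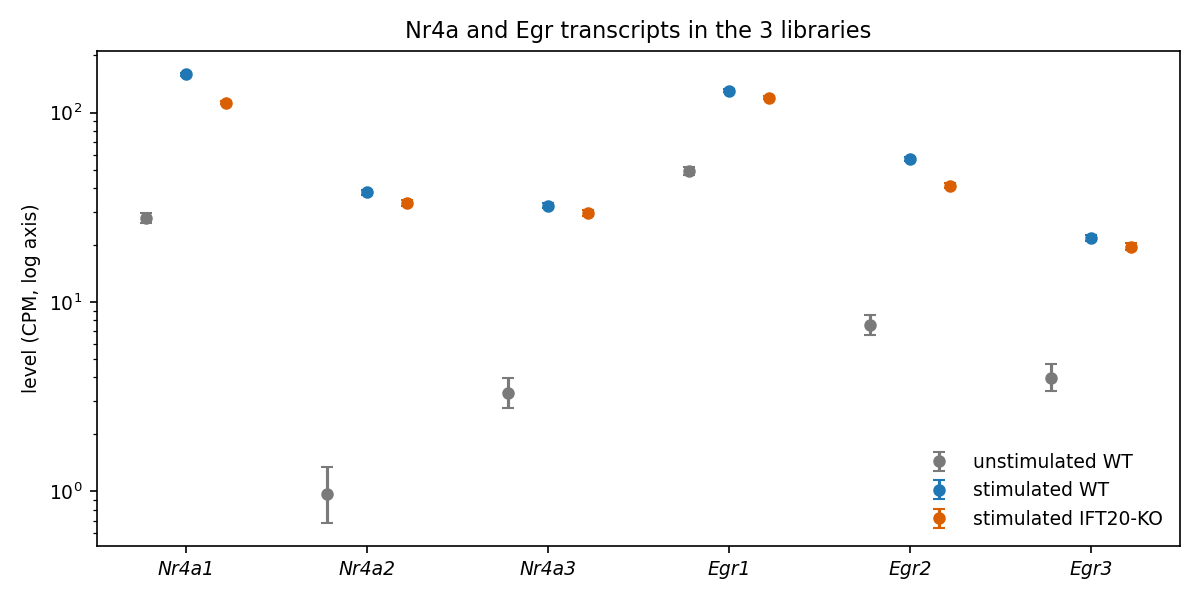
Level of each gene in CPM on a log axis in the 3 libraries, with exact Poisson 95% intervals (n = 1 library per group). Each gene is lowest in the unstimulated library, from 0.969 CPM for Nr4a2 to 49.0 CPM for Egr1, and highest in the stimulated WT library, with IFT20-KO close below it.

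The 3 Egr genes were higher after stimulation as well, with the smallest ratio for *Egr1*. *Egr1*, which growth factors also induce in most cell types, lies at chr18:34859823-34864984 on the plus strand. It was at 49.0 CPM (46.8 to 51.3) in unstimulated WT, 130 CPM (128 to 132) in stimulated WT and 120 CPM (118 to 122) in IFT20-KO cells, so stimulated WT cells were 2.66-fold higher (2.53 to 2.80). *Egr2*, known for restraining T cell responses together with *Egr3*, lies at chr10:67535475-67542188 on the plus strand. It was at 7.57 CPM (6.71 to 8.51), 56.7 CPM (55.4 to 58.1) and 41.2 CPM (40.0 to 42.4) in the same order, a 7.499-fold difference with stimulation (6.65 to 8.48). *Egr3* lies at chr14:70077203-70082614 on the plus strand and was at 3.99 CPM (3.37 to 4.68), 21.7 CPM (20.9 to 22.6) and 19.6 CPM (18.8 to 20.5). Its ratio with stimulation was 5.45-fold (4.61 to 6.47). *Egr1* held 80.9% of the family's UMIs before and 62.4% after stimulation, and *Egr2* went from 12.5% to 27.2%.

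All 6 genes were thus at least 2-fold higher after stimulation, where 19.3% of the 13297 genes that reached 10 UMIs in sum were at least 2-fold higher and 23% at least 2-fold lower. The median log2 ratio of the 6 genes was 2.71 and that of all these genes -0.089. Ranked from the highest ratio, *Nr4a2* was 79th, *Nr4a3* 369th, *Egr2* 476th, *Nr4a1* 627th, *Egr3* 662nd and *Egr1* 1679th. In cells of the same range of UMI number (under 3000, from 3000 to under 6000, from 6000 to under 12000, and at least 12000 UMIs) every gene was higher in stimulated WT cells in all 4 ranges. The share of all genes that were higher in each range was not computed. Depth is matched only loosely in the lowest range. The lowest UMI number of any deposited barcode was 500 in the unstimulated WT, 709 in the stimulated WT and 1493 in the IFT20-KO library. The deepest range held 62 unstimulated cells, with 0 UMIs of *Nr4a2* and *Nr4a3*, so their ratios there rest on a floor of 3 counts. The lowest of these log2 ratios was 0.97 (0.68 to 1.26), that of *Egr1* under 3000 UMIs.

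The share of cells with at least 1 UMI of a gene was higher after stimulation for all 6, and it also depends on the depth of the cells. Before stimulation *Nr4a1* was found in 3.45% of cells (3.06 to 3.87), *Egr1* in 9.33% (8.70 to 9.98) and the other 4 genes in 0.174% to 1.78%. In stimulated WT cells the shares were 36.8% for *Nr4a1* and 44.8% for *Egr1*, and 18.4% to 33.4% for the other 4. To set the libraries at one depth, each cell was thinned to 1400 randomly drawn UMIs, which left out 801 unstimulated and 421 stimulated WT cells and no IFT20-KO cell. At that depth *Nr4a1* was detected in 1.84% of unstimulated (1.54 to 2.18) and 13.4% of stimulated WT cells (12.7 to 14.1). The thinned shares of *Egr1* were 4.52% (4.06 to 5.03) and 14.6% (13.9 to 15.3), and those of *Nr4a2* were 0.138% (0.0663 to 0.254) and 4.65% (4.24 to 5.09). For each of the 6 genes the intervals of these 2 groups did not overlap. The share of all genes whose thinned intervals did not overlap was not computed.

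No cell type that should lack the 6 genes could be set apart after stimulation, so the part of free RNA in these shares was not tested. As a reference, cells with an *Il7r* UMI and no *Cd69* or *Il2ra* UMI at 1400 UMIs were taken. In the unstimulated library *Nr4a1* was found in 0.917% of 2507 such cells (0.582 to 1.37) and in 2.33% of the others, at median depths of 4856 and 4773 UMIs, while *Egr1* was found in 4.27% (3.51 to 5.13) and 4.66%. In the stimulated WT library 52 cells met the rule, with a median of 6901.5 UMIs against 12517.5 in the others. *Nr4a1* was in 11.5% of them (4.35 to 23.4) against 13.4% and *Egr1* in 13.5% (5.59 to 25.8) against 14.6%. These shares did not differ beyond counting error, and the 52 cells are too few to set a background.

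**Figure D2:**
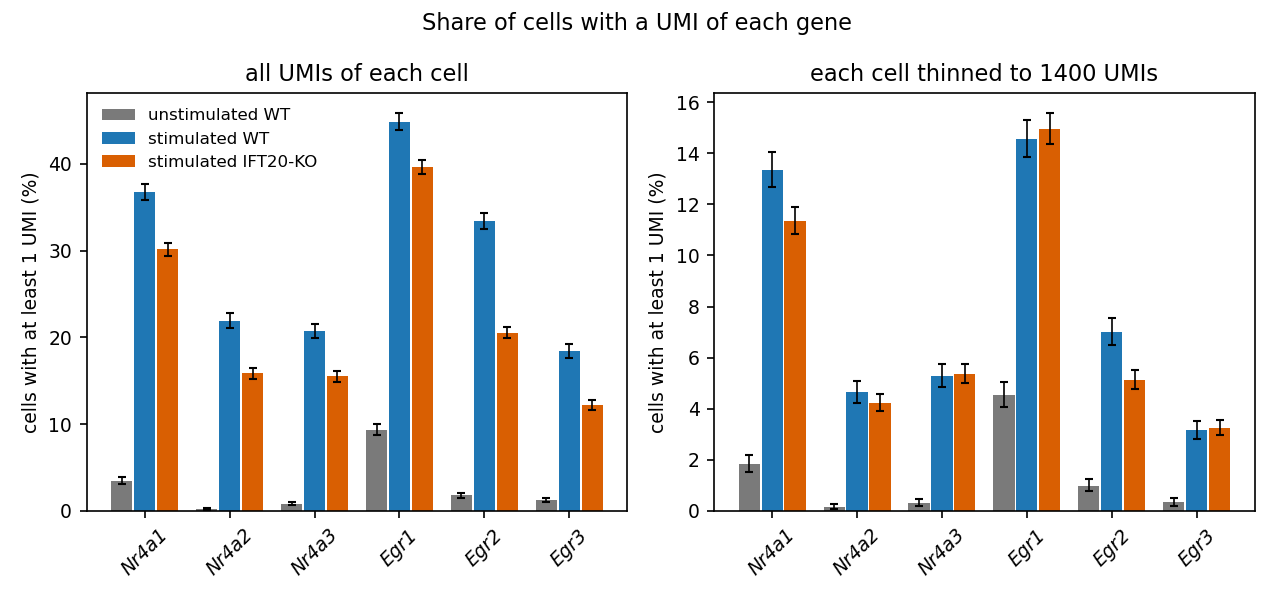
Share of cells (%) with at least 1 UMI of each gene, with all UMIs of a cell (left) and with each cell thinned to 1400 UMIs (right), with exact Clopper-Pearson 95% intervals. The gap between stimulated WT and IFT20-KO cells is visible for all 6 genes on the left, and on the right, of the 2 stimulated groups, only Nr4a1 and Egr2 have intervals that do not overlap.

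The UMIs of *Nr4a1* were unevenly spread over cells. In the unstimulated library 25 of 8031 cells had more than 10 UMIs of it, and these cells held 51.7% of all its UMIs. In the stimulated WT library 488 cells, 4.93% of the library, held 54.7% of them, and 1 cell had 73. The IFT20-KO library had 235 such cells with 36.0% of the UMIs, at its lower depth. In cells thinned to 4000 UMIs, where counts scattered by chance alone would give a variance equal to the mean, the variance of *Nr4a1* was 11.8 times its mean in unstimulated, 5.59 times in stimulated WT and 4.22 times in IFT20-KO cells. The other 5 genes had lower ratios after stimulation, at 1.15 to 2.55 times in WT cells. *Egr1* was the highest and *Egr3* the lowest of them. This ratio tends to rise with the mean, so it does not rank genes or libraries by evenness. The top 10% of stimulated WT cells for each gene held 74.8% of the UMIs of *Nr4a1*, 73.4% of *Nr4a2* and 71.9% of *Nr4a3*. They held 67.2% for *Egr3*, 55.5% for *Egr1* and 55.2% for *Egr2*. These shares come from unthinned counts and also depend on how many cells detect a gene and on cell depth. They do not rank the genes by evenness either.

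In IFT20-KO cells all 6 genes were lower in CPM than in stimulated WT cells, most of all *Nr4a1* and *Egr2*. None of the 6 differed by 2-fold, which 3.92% of 13504 genes did upward and 1.67% downward. As mean UMIs per cell, without scaling for depth, *Nr4a1* and *Egr2* were past 2-fold lower, at log2 ratios of -1.12 and -1.09. That setting lowers the ratio of every gene by the same amount, and the share of all genes past 2-fold in it was not computed. In CPM, *Nr4a1* had a log2 ratio of -0.50 (-0.53 to -0.46) and *Egr2* of -0.46 (-0.52 to -0.41), ranks 542 and 576 from the lowest. *Nr4a2*, at -0.19 (-0.26 to -0.13), *Egr3*, at -0.15 (-0.23 to -0.06), *Nr4a3*, at -0.13 (-0.19 to -0.06), and *Egr1*, at -0.12 (-0.16 to -0.09), were closer to 0. The median of all genes in this comparison was 0.14, with 68.3% of them above 0, and the median of the 6 was -0.17. Set against that median of 0.14, the ratios ran from -0.63 for *Nr4a1* to -0.26 for *Egr1*. At 1400 UMIs per cell the ratio of *Nr4a3* was 0.011 and that of *Egr3* 0.025, so the lower level of these 2 genes was not kept. No replicate shows how far 2 libraries of the same genotype would differ.

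In thinned shares of cells *Nr4a1* and *Egr2* again stood apart from the other 4 genes, and the shares come from the same unequal mix of cell depths. The share of all genes with separate intervals was again not computed. *Nr4a1* was detected in 11.4% of IFT20-KO cells (10.8 to 11.9) against 13.4% of stimulated WT cells, and *Egr2* in 5.13% (4.77 to 5.51) against 7.00% (6.50 to 7.54). The intervals of the other 4 overlapped, with *Nr4a2* at 4.22% (3.90 to 4.57), *Nr4a3* at 5.37% (5.00 to 5.76), *Egr1* at 14.96% (14.4 to 15.6) and *Egr3* at 3.25% (2.96 to 3.56) in IFT20-KO cells. Their stimulated WT shares were 4.65%, 5.27% (4.83 to 5.74), 14.6% and 3.16% (2.82 to 3.54). Of these 4, only *Nr4a2* had the lower share in IFT20-KO cells, and the shares of *Nr4a3*, *Egr1* and *Egr3* were slightly higher there.

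The number of genes with an interval below 0 varied with the depth of the cells, and it also depends on the UMIs counted in a range. The median log2 ratio of the 6 genes was -0.27 under 3000 UMIs and -0.23 from 3000 to under 6000. It was -0.34 from 6000 to under 12000 and -0.37 with at least 12000. The share of all genes with an interval below 0 in each range was not computed. From 6000 to under 12000 UMIs, and again with at least 12000, all 6 genes were lower in IFT20-KO cells with intervals below 0. These intervals take UMIs as independent and do not cover the uneven spread of UMIs over cells. In the former range that of *Nr4a2*, at -0.13 (-0.25 to -0.00099), ended close to 0. In the same range *Nr4a1* was at 250 CPM in WT (244 to 257) and 150 CPM in IFT20-KO cells (145 to 154), a log2 ratio of -0.74 (-0.80 to -0.69), and *Egr2* had a log2 ratio of -0.51 (-0.61 to -0.41). Above 12000 UMIs these ratios were -0.49 (-0.54 to -0.45) and -0.45 (-0.52 to -0.38). Below 3000 UMIs, where 5517 IFT20-KO and 2147 WT cells lay, 5 genes were lower and 3 of them, *Nr4a3*, *Egr2* and *Egr3*, had an interval below 0. *Nr4a1* had a log2 ratio of -0.12 (-0.29 to 0.06) there and *Egr1* of 0.10 (-0.05 to 0.25). From 3000 to under 6000 UMIs the WT library had 339 cells. *Nr4a1* and *Egr2* had their lowest ratios there, at -0.89 (-1.10 to -0.69) and -0.75 (-1.10 to -0.39), while *Nr4a3* and *Egr3* were above 0 with intervals that included it.

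**Figure D3:**
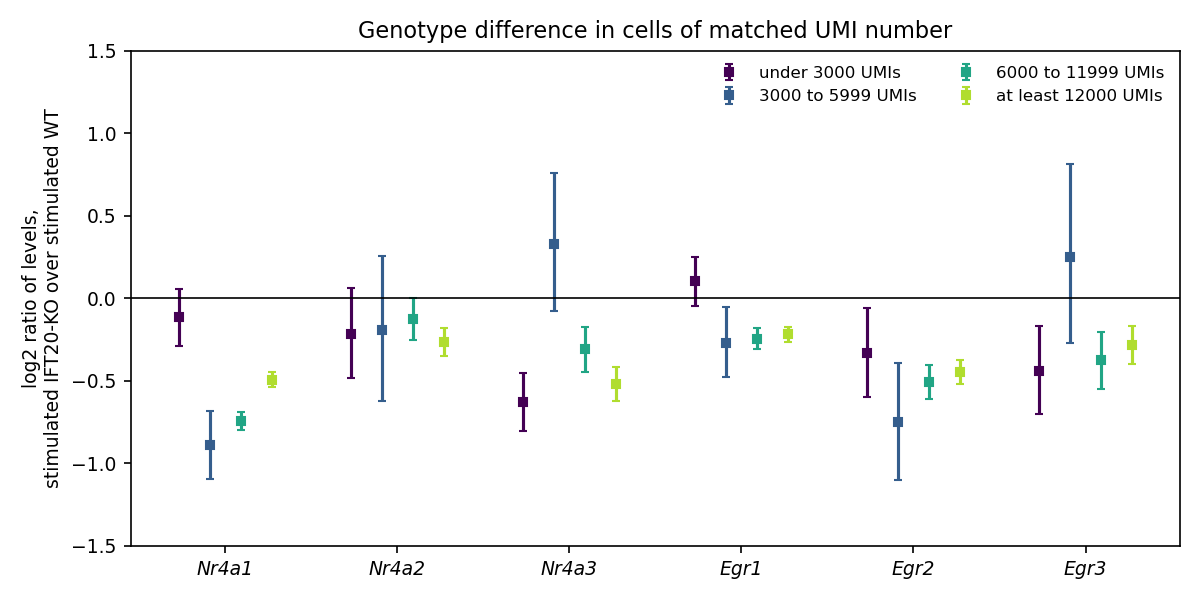
Log2 ratio of the level in IFT20-KO over WT stimulated cells, for each gene in 4 ranges of UMIs per cell, with 95% intervals from the exact binomial interval of the UMIs. In the 2 ranges from 6000 UMIs upward all 6 genes lie below 0, and below 6000 UMIs the points lie on both sides of 0, with Nr4a1 and Egr2 lowest from 3000 to under 6000 UMIs.

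The low-UMI cells stood apart in the makeup of the 2 families too. In stimulated WT cells under 3000 UMIs *Nr4a3* was at 101 CPM (91.6 to 112) and above 12000 UMIs at 28.4 CPM (27.3 to 29.5), whereas *Nr4a1* was at 94.9 CPM (85.5 to 105) and 138 CPM (135 to 140). The IFT20-KO library had *Nr4a3* at 65.5 CPM (61.1 to 70.1) and 19.8 CPM (18.6 to 20.99) in the same ranges. The WT cells under 3000 UMIs had a median of 10.3% mitochondrial UMIs against 1.19% above 12000, and a *Cd3e* UMI in 76.2% against 99.96% of cells. Both naïve and activated markers were higher in them, with naïve markers at a summed 2678 CPM against 813 and activated markers at 2517 CPM against 1146. In IFT20-KO cells the median mitochondrial share was 5.74% and 1.02%, and activated markers summed to 1717 and 994 CPM. The part of these traits in the difference in makeup was not tested.

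Within each library the 6 genes were found together in the same cells more often than their separate shares would give. The same ratio for pairs of other genes was not computed, so an excess particular to these genes is not shown. At 1400 UMIs per cell the number of cells with both genes of a pair was divided by the number expected if the genes were independent. In unstimulated cells the median of the 15 pairs was 26.0, from 8.04 to 131, and in stimulated WT and IFT20-KO cells it was 2.05, from 1.22 to 2.97, and 1.66, from 1.07 to 2.10. The counts behind the unstimulated values are small, such as 34 cells with *Nr4a1* and *Egr2* where 1.31 would be expected (ratio 26.0, 18.0 to 36.4), and the ratio of 131 rests on 4 cells. *Egr2* was rarely alone there, since 50 of its 71 detecting cells also had *Egr1*. After stimulation the common pair of *Nr4a1* and *Egr1* was in 390 WT cells where 184 would be expected (2.12, 1.91 to 2.34) and in 373 IFT20-KO cells where 237 would be (1.58, 1.42 to 1.74). The pairs with the weakest excess were *Nr4a2* with *Egr3* in WT cells, at 1.22 (0.710 to 1.95), and *Nr4a3* with *Egr2* in IFT20-KO cells, at 1.07 (0.767 to 1.45), both with intervals that include 1. The ratio cannot exceed 1 divided by the larger share of the pair, so it can be higher for rarer genes and is not comparable between unstimulated and stimulated cells. Pearson's r over cells thinned to 4000 UMIs differed less, from 0.18 to 0.55 over the 15 pairs in unstimulated, 0.10 to 0.38 in stimulated WT and 0.07 to 0.31 in IFT20-KO cells, and *Nr4a1* with *Nr4a2* had 0.36, 0.34 and 0.29. All cells of a library share its capture, and these values describe cells and not replicates.

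**Figure D4:**
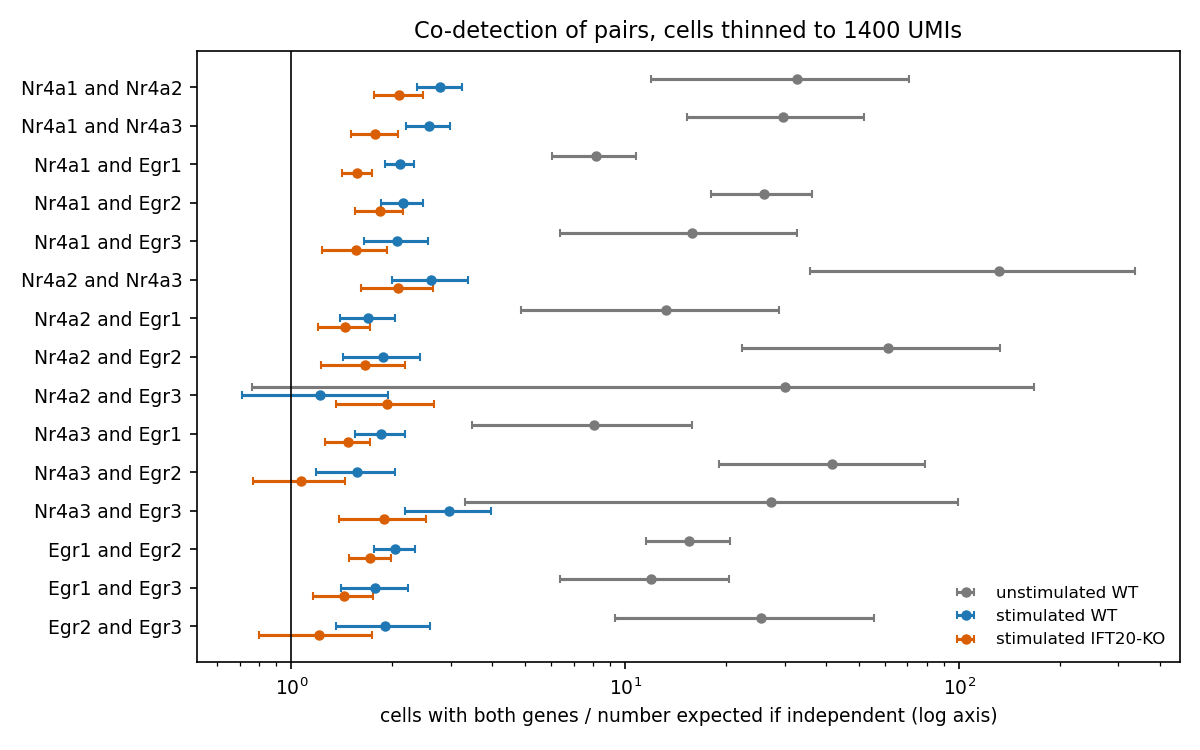
Cells with both genes of each of the 15 pairs divided by the number expected if the genes were independent (log axis), in cells thinned to 1400 UMIs, with Poisson 95% intervals of the number of cells with both. All points lie right of the line at 1, the unstimulated ones between 8.04 and 131 and the stimulated ones between 1.07 and 2.97.

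Counted per cell, 93.9% of unstimulated, 66.5% of stimulated WT and 65.8% of IFT20-KO cells had none of the 6 genes at 1400 UMIs. At least 3 of them were found in 38 unstimulated cells (0.526%), where independence would give 0.00206% of cells, in 287 stimulated WT cells (3.03% against 0.729%) and in 226 IFT20-KO cells (1.62% against 0.570%). Within cells of at least 12000 UMIs the stimulated shares were 2.54% against 0.585% in WT and 0.910% against 0.309% in IFT20-KO cells. The median ratio of the pairs in that range was 1.90 and 1.85, and under 3000 UMIs it was 1.83 in WT and 1.24 in IFT20-KO cells. With at least 12000 UMIs the lowest pair was at 1.23 in WT and 0.477 in IFT20-KO cells. In the 534 unstimulated cells under 3000 UMIs the median was 0, with 7 of 15 pairs above 1. An Nr4a gene was found in 146 unstimulated cells and an Egr gene in 359, and 63 had both, which is 0.871% of cells. In stimulated WT cells 19.4% had an Nr4a gene, 21.6% an Egr gene and 7.53% both, and in IFT20-KO cells 18.6%, 21.2% and 5.60%.

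Cells with at least 3 of the 6 genes also differed in *Cd69*, *Dusp2*, *Nab2* and *Klf2*, each in the same direction in all 3 libraries. These genes were chosen after values had been seen, and the share of all genes with a common direction was not computed. *Cd69*, an early surface marker of activation, was at 101 CPM in unstimulated cells with none of the 6 genes, 248 CPM with 1 or 2 and 872 CPM (751 to 1008) with 3 or more. In stimulated WT cells it was at 241, 410 and 592 CPM (565 to 619), and in IFT20-KO cells at 226, 354 and 600 CPM (563 to 639). *Dusp2*, a nuclear phosphatase that acts on ERK, was at 168 CPM with none and 886 CPM (764 to 1023) with 3 or more in unstimulated cells, at 339 and 932 CPM (898 to 965) in stimulated WT cells and at 299 and 848 CPM (804 to 893) in IFT20-KO cells. The EGR corepressor gene *Nab2* went from 41.3 to 303 CPM (234 to 387) before stimulation and from 69.2 to 213 CPM (197 to 229) after it. *Klf2*, a factor of quiescent naïve T cells, ran the other way, from 1108 to 540 CPM (446 to 649) in unstimulated, from 136 to 43.5 CPM (36.6 to 51.3) in stimulated WT and from 108 to 64.5 CPM (52.8 to 78.0) in IFT20-KO cells. The 38 unstimulated cells had a median of 5186.5 UMIs against 4795.5 in cells with none of the 6 genes, all had a *Cd3e* UMI, and 4 had a *Foxp3* UMI. *Cd3e* and *Il7r* had no common direction, since *Cd3e* was at 1023 CPM with none of the 6 genes and 1213 CPM (1069 to 1371) with 3 or more before stimulation and at 910 and 745 CPM (716 to 776) in stimulated WT cells, and *Il7r* was at 467 and 270 CPM (205 to 350) before and 5.09 and 14.6 CPM (10.7 to 19.4) after it. *Foxp3* had no common direction either, with 18.9 CPM in unstimulated cells with none of the 6 genes and 42.7 CPM with 3 or more. It was at 3.38 and 2.17 CPM in stimulated WT cells and at 4.84 and 9.73 CPM in IFT20-KO cells. Doublets were not removed from these counts.

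**Figure D5:**
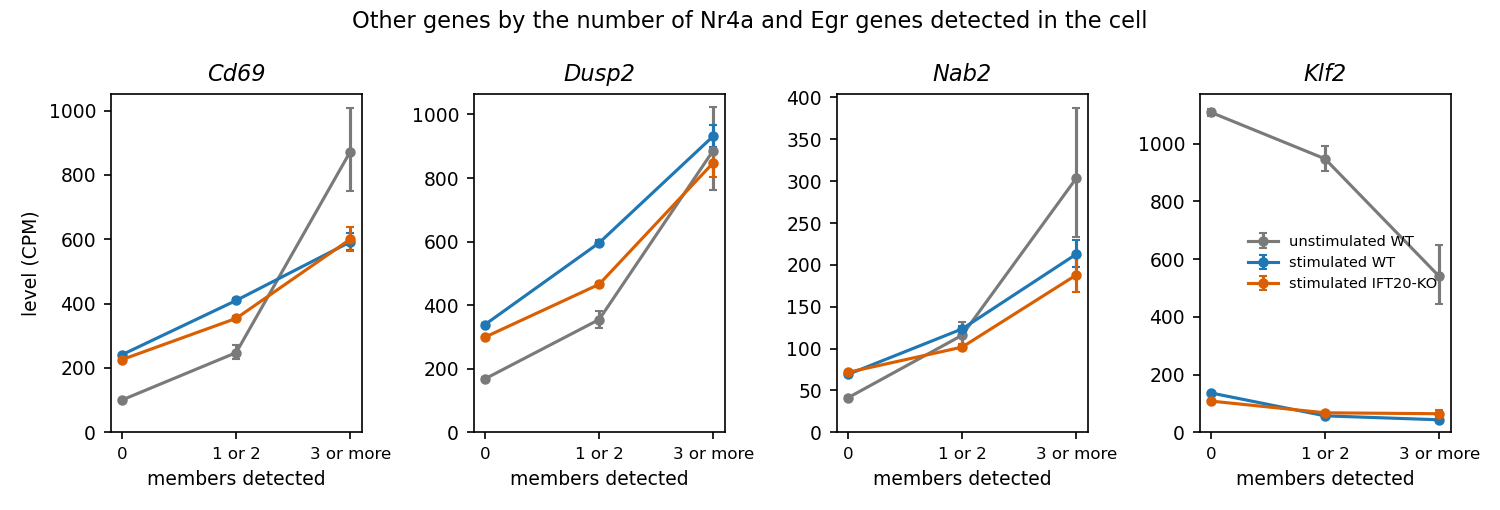
Level (CPM) of Cd69, Dusp2, Nab2 and Klf2 in cells with 0, 1 or 2, and 3 or more of the 6 genes detected at 1400 UMIs, for each library, with Poisson 95% intervals. Cd69, Dusp2 and Nab2 are highest and Klf2 lowest in the cells with 3 or more in each library, although the IFT20-KO intervals of Klf2 overlap. Unstimulated cells with 3 or more have Cd69 at 872 CPM and Klf2 at 540 CPM.

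Stimulated WT cells with chemokine transcripts carried all 6 genes more often, and those with *Il2* transcripts 5 of the 6. The share of all genes that differ in such splits was not computed. Among stimulated WT cells with a UMI of *Ccl3* or *Ccl4*, chemokines of activated T cells, at 1400 UMIs (792 cells), *Nr4a1* was found in 27.9% (24.8 to 31.2) against 12.03% of the other cells (11.3 to 12.7). All 6 genes had the higher share there, with *Nr4a2* at 10.2% against 4.14%, *Nr4a3* at 11.2% against 4.73%, *Egr2* at 12.6% against 6.49%, *Egr3* at 5.93% against 2.91% and *Egr1* at 19.3% against 14.1%, and no pair of intervals overlapped. Both kinds of cells had similar depth, with medians of 13137 and 12445.5 UMIs. In IFT20-KO cells *Nr4a1* was at 17.2% (15.4 to 19.2) in 1557 chemokine-positive cells against 10.6% (10.1 to 11.2), while *Egr2* was at 5.39% (4.33 to 6.64) against 5.10% (4.71 to 5.50) and *Egr3* at 3.73% (2.84 to 4.79) against 3.19% (2.88 to 3.51), with intervals that overlapped. In the same IFT20-KO split *Nr4a2*, at 6.49% against 3.94%, *Nr4a3*, at 9.57% against 4.85%, and *Egr1*, at 19.0% against 14.4%, had intervals that did not overlap. The chemokine-positive IFT20-KO cells were shallower, with a median of 3316 UMIs against 5908. In the 661 stimulated WT cells with an *Il2* UMI, *Nr4a1* was found in 24.5% (21.3 to 28.0) against 12.5% (11.8 to 13.2) and *Egr2* in 11.3% (9.03 to 14.0) against 6.68% (6.17 to 7.22). *Nr4a3*, at 9.83% against 4.93%, *Egr1*, at 19.5% against 14.2%, and *Egr3*, at 4.99% against 3.03%, also had intervals that did not overlap, whereas *Nr4a2* was at 6.20% (4.49 to 8.32) against 4.53% (4.11 to 4.99), with intervals that overlapped. The WT cells with an *Il2* UMI were deeper, with a median of 14903 UMIs against 12369. In IFT20-KO cells the *Il2* split gave 15.6% (13.1 to 18.3) against 11.1% (10.6 to 11.7) for *Nr4a1* and 5.06% (3.64 to 6.83) against 5.13% (4.76 to 5.52) for *Egr2*. *Nr4a3*, at 7.59% against 5.24%, and *Egr1*, at 19.0% against 14.7%, had intervals that did not overlap in that split. Those of *Nr4a2*, at 5.32% against 4.16%, and *Egr3*, at 4.81% against 3.15%, overlapped. The IFT20-KO cells with an *Il2* UMI were shallower, with a median of 3300.5 UMIs against 5492. Whether the genotypes differ in these splits was not tested.

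The genes whose pattern over cells was most like that of a member included *Nr4a1* for each of the other 5, and *Dusp2* and *Zfp36l1* for 4 of the 6. Likeness was Pearson's r of log(1 + UMIs) over the 7604 stimulated WT cells with at least 4000 UMIs, thinned to 4000, among 5965 genes found in at least 5% of them. *Nr4a1* was most like *Egr1* (r = 0.38), *Nr4a3* (0.38), *Dusp2* (0.35), *Nr4a2* (0.34) and *Zfp36l1* (0.33), a protein that binds AU-rich transcripts and promotes their decay. *Egr1* was most like *Nr4a1*, *Dusp2* (0.34), *Zfp36l1* (0.33), *Egr2* (0.32) and *Zfp36* (0.29). *Egr2* and *Egr3* had *Nr4a1*, *Egr1*, *Dusp2* and *Zfp36l1* among their 5, to which *Cd69* (0.21) was added for *Egr2* and *Egr2* (0.15) for *Egr3*. *Nr4a2* and *Nr4a3* shared *Nr4a1* and *Cd40lg*, the ligand of CD40, with *Rgcc* (0.21) and *Phlda1* (0.21) for *Nr4a2* and the histone demethylase gene *Kdm6b* (0.22), the cytokine gene *Lta* (0.20) and *Atf3* (0.19) for *Nr4a3*. The fifth gene of *Nr4a2* was *Egr1* (0.19). The r of *Nr4a1* with *Egr1* was 0.31 in 7268 IFT20-KO cells and 0.45 in 5374 unstimulated cells. Values of this size in sparse counts are weak, each comes from the cells of 1 library, and at 1400 UMIs per cell 16 of the 30 named genes were named again.

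Other immediate-early genes stood on both sides of 0. Of 26, 7 were at least 2-fold higher in stimulated WT cells and 6 at least 2-fold lower, with a median log2 ratio of -0.14, beside 19.3% and 23% of all genes and their median of -0.089, so the list lay near all genes. The highest were *Atf3*, with 2 UMIs before and 1934 after stimulation (log2 ratio 8.26, 6.41 to 11.3), *Fosl1*, an AP-1 subunit, at 6.14 (5.42 to 6.98), and *Egr4*, the remaining Egr family gene, with 0 UMIs before and 469 after, where 3 counts before would give a log2 ratio of 5.63 (the counting interval starts at 5.33). The lowest were the AP-1 subunit *Jun*, at -3.05 (-3.14 to -2.97), *Fosb*, at -2.63 (-3.35 to -1.93), and *Klf6*, at -2.40 (-2.47 to -2.34). In IFT20-KO cells none of the 26 differed by 2-fold from stimulated WT cells and 6 were above 0, beside 68.3% of all genes, with a median of -0.18. *Atf3* was the lowest, at -0.95 (-1.07 to -0.84), from 16.5 to 8.53 CPM.

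Of the genes known to act above the 2 families, 4 of 19 were above 0 after stimulation, beside 47.0% of all genes. Of these 19 (of 20 listed, with *Mef2c* under 10 UMIs), 3 were at least 2-fold higher, namely *Hdac7* (log2 ratio 1.27, 1.21 to 1.34), a repressor of MEF2 factors that silences *Nr4a1* in thymocytes, *Crem* (1.18, 1.01 to 1.36) and *Nfatc1* (1.12, 1.06 to 1.19), and 6 were at least 2-fold lower, beside the 19.3% and 23% of all genes. The lowest were *Ppp3ca*, a catalytic subunit of calcineurin, at -2.56 (-2.68 to -2.44), *Mkl1*, a coactivator of serum response factor, at -2.04 (-2.12 to -1.96), and *Nfatc3*, at -1.63 (-1.69 to -1.57). In IFT20-KO cells 17 of the 19 were above 0, beside 68.3% of all genes, and none differed by 2-fold, with *Srf* at -0.29 (-0.44 to -0.14) below 0. Of the partners, *Nab2* was at 47.0, 89.2 and 82.4 CPM in unstimulated WT, stimulated WT and IFT20-KO cells, while *Nab1* was at 31.5, 11.002 and 10.9 CPM. *Rxra* and *Rxrb*, nuclear receptors that can pair with NR4A proteins, had log2 ratios of 0.73 (0.32 to 1.17) and 0.31 (0.20 to 0.43) with stimulation, and *Rxrg* had under 10 UMIs.

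Among 22 genes reported elsewhere as targets of the factors or linked to them in T cells, 9 were at least 2-fold higher and 3 at least 2-fold lower after stimulation, beside 19.3% and 23% of all genes, with a median log2 ratio of 0.32. The highest were the cell cycle inhibitor gene *Cdkn1a*, at 8.03 (7.28 to 8.90), the inhibitory receptor gene *Lag3*, at 6.25 (5.84 to 6.69), and the transcription factor gene *Bhlhe40*, at 6.05 (5.37 to 6.83). *Foxp3*, the factor of regulatory T cells, at -2.67 (-2.85 to -2.49), and the anergy-linked genes *Itch*, at -1.30 (-1.39 to -1.20), and *Dgka*, at -1.23 (-1.25 to -1.20), were the lowest. In IFT20-KO cells 19 of the 22 were above 0, beside 68.3% of all genes, with a median of 0.11 beside the 0.14 of all genes. *Tnfsf11*, encoding RANKL, was at 23.2 CPM in stimulated WT and 41.4 CPM in IFT20-KO cells (log2 ratio 0.84, 0.77 to 0.91). *Rnf128*, a ubiquitin ligase gene of anergic T cells, was past 2-fold lower at -1.26 (-2.19 to -0.39), on 42 and 16 UMIs.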

How the data were processed

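Single-cell RNA libraries of mouse spleen CD4+ T cells were analysed from the counts of UMIs per gene and barcode that the authors deposited, unnormalized, for called barcodes. Reads had been processed by the authors with Cell Ranger (3.1.0 in the file headers) on the mm10 build. The methods name a 3′ kit and the labels a 5′ kit, and which of them was used was not settled here. Barcodes were kept above 200 genes and below 15% UMIs from mitochondrial genes. UMIs were summed per library and expressed per 1000000 (CPM). Intervals at the 95% level were exact Poisson for CPM, exact binomial for ratios and Clopper-Pearson for shares. They cover counting error only, and with 1 library per group no test was made. A count of 0 was set to a floor of 3 in ratios. Cells were thinned to 1400 or 4000 UMIs by drawing without replacement, and shallower cells were left out. Doublets were not removed. The calculation was tested on simulated data. The members and gene lists were chosen with earlier results of these data known. All 6 members were named. For each, the 5 genes with the highest r were named, and for each list the 3 highest and 3 lowest ratios, of which those that matter are printed. *Cd69*, *Dusp2*, *Nab2*, *Klf2*, *Foxp3* and *Cd3e* in cells with several members were chosen after values had been seen. Alternatives were median-ratio scaling, per-cell fractions, UMIs per cell, all barcodes, a stricter filter (more than 1000 genes, under 10% mitochondrial UMIs), thinning, cells with at least 6000 UMIs and minimums of 200 and 1 UMIs. Promoters came from RefSeq (GRCm38.p6) and positions from GENCODE M21. Python 3.11.15, numpy 2.4.6, scipy 1.17.1 and matplotlib 3.10.9 were used.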

Additional observations from a re-analysis of the deposited data

Results flagged for a closer look

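Barcodes that the filter had left out entered only the alternative setting with all barcodes. In those of the stimulated WT library the 6 genes were above their level in those of the unstimulated library. The 417 barcodes left out of the stimulated WT library held the 6 genes at a summed 393 CPM (350 to 441), against 110 CPM (67.9 to 168) in the 222 barcodes left out of the unstimulated library. The 12 left out of the IFT20-KO library gave 286 CPM (115 to 589) on 7 UMIs, an interval that overlaps the unstimulated one.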

How the results depend on the processing

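With stimulation, each of the 6 genes was higher in all 42 combinations of gene and alternative setting, and the median log2 ratio of 2.71 became 4.07 for UMIs per cell without scaling, 2.93 after thinning to 1400 UMIs and 2.17 in cells with at least 6000 UMIs. For IFT20-KO against WT, 40 of 42 combinations kept the lower level. The exceptions were *Nr4a3*, at 0.011, and *Egr3*, at 0.025, after thinning to 1400 UMIs. The median of -0.17 became -0.31 with median-ratio scaling, -0.80 for UMIs per cell without scaling and -0.33 in cells with at least 6000 UMIs. Without scaling *Nr4a1* and *Egr2* were past 2-fold lower, in a setting that lowers every gene by the same amount. The share of all genes at least 2-fold higher in IFT20-KO cells, 3.92%, was 0.999% with a minimum of 200 UMIs and 9.40% with a minimum of 1 UMI. The causes of these shifts were not tested, and the share of all genes that keep their direction over the settings was not computed. Without replicates, library and group cannot be told apart, and low counts of *Nr4a2*, *Nr4a3* and *Egr3* limit the unstimulated values.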

Other observations

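Regulatory and dividing cells were looked at in the same way as chemokine-positive cells. In the unstimulated library 164 cells had a *Foxp3* UMI at 1400 UMIs, and *Egr1* was found in 7.32% of them (3.84 to 12.4) against 4.46% of the other cells (3.99 to 4.97) and *Nr4a1* in 3.05% (0.997 to 6.97) against 1.81% (1.51 to 2.15). *Nr4a2* and *Nr4a3* had no UMI in the 164 cells at that depth, which allows up to 2.22% of cells with a UMI at 1400 UMIs, and the full counts of the same cells held them at 1.27 and 2.54 CPM. After stimulation *Nr4a1* was at 5.71% (0.700 to 19.2) in 35 WT cells with a *Foxp3* UMI against 13.4% of the others (12.7 to 14.1), and at 9% (4.20 to 16.4) in 100 IFT20-KO cells against 11.4% (10.9 to 11.9). In stimulated WT cells with an *Mki67* UMI, a marker of dividing cells (157 cells), *Nr4a2* was found in 8.92% (4.96 to 14.5) against 4.58% (4.16 to 5.02), while *Egr2* was in 5.10% (2.23 to 9.79) against 7.03% (6.52 to 7.57). These cells were shallower, with a median of 4538 UMIs against 12528. In 469 such IFT20-KO cells *Nr4a2* was at 5.54% (3.65 to 8.02) against 4.18% (3.85 to 4.53) and *Egr2* at 3.20% (1.80 to 5.22) against 5.20% (4.83 to 5.59). Their median depth was 2991 UMIs against 5905. For all 6 genes the intervals with and without an *Mki67* UMI overlapped in each stimulated library, and those given for *Foxp3* overlapped too. Splits by *S100a4* and *Il7r* UMIs were made too. In the unstimulated library *Nr4a1* was in 15% (3.21 to 37.9) of 20 *S100a4* cells against 1.80% (1.51 to 2.14). It was in 1.28% (0.908 to 1.75) of *Il7r* cells against 2.23% (1.81 to 2.72). In stimulated WT cells *Nr4a3* was in 11.6% (6.66 to 18.5) of 129 *Il7r* cells against 5.19% (4.74 to 5.65), at medians of 2482 and 12565 UMIs. The other intervals in the *S100a4* and *Il7r* splits overlapped. The share of all genes that differ in these splits was not computed.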
